A study of Mus musculus with 8 samples.

Results

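The genes described here build the parts of peripheral myelin that keep cytoplasm and the Schwann cell side of the node of Ranvier. They were chosen by symbol as 10 named genes of the periaxonal membrane, Cajal bands, junctions and nodes: Prx, Drp2, Mag, Gjb1, Cldn19, Ncmap, Gldn, Nfasc, Cadm4 and Cnp. All 10 were found among 20943 gene symbols. RNA of 8 mouse MPNSTs was read by poly-A RNA sequencing; this cancer, the malignant tumor of the peripheral nerve sheath, arises from Schwann lineage cells. The 3 PRC2 loss tumors came from Plp-CreERT mice with floxed Nf1, Cdkn2a and Eed, given as Nf1(-/-) Cdkn2a(-/-) Eed(-/-). The 5 PRC2 wildtype tumors came from Plp-CreERT mice with floxed Nf1 and Cdkn2a and no floxed Eed. All mice received tamoxifen, 0.4 mg, between day 0 and day 3 after birth, and Nf1 and Cdkn2a are given as deleted in both groups. Plp-CreERT is a tamoxifen-inducible recombinase that is active in the Schwann lineage, and Eed is needed by Polycomb repressive complex 2 (PRC2), which methylates histones at silenced genes.

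Myelinating Schwann cells wrap an axon in compacted membrane but keep channels of cytoplasm outside it. On the outer surface, scaffold proteins tie the plasma membrane to dystroglycan and leave the cytoplasm-filled Cajal bands between the appositions. Within the sheath, gap and tight junctions join adjoining layers of the same cell. On the inner surface, adhesion molecules hold the sheath to the axon, and at the node microvilli of the Schwann cell carry ligands that gather axonal sodium channels.

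The values are the authors' quantile-normalized log2 gene counts, a scale on which a difference of 1 is a doubling for well expressed genes, and sequencing depth is unknown. Animal codes are read from the sample names, and for PRC2 loss tumors the descriptions write PNCE where the titles write PECN. PRC2 loss tumor 1, from a right paraspinal nerve, has the animal code PNCE5. PRC2 loss tumor 2 grew in the left sciatic nerve and tumor 3 in the right one, and these share the code PNCE7. Wildtype tumors 1 and 2 share the code PNC8, tumors 3 and 4 share PNC9 and tumor 5 is PNC11, and their nerves are not given. If a shared code is a shared mouse, the p-values below, which treat the 8 tumors as independent, are too small. Eed, which the labels say is deleted in PRC2 loss, was lower there at 8.89 ± 0.11 (SD, n = 3), against 10.25 ± 0.08 in wildtype (SD, n = 5; limma adjusted p = 0.00021). Nf1, given as deleted in both groups, did not differ past the threshold (limma adjusted p = 0.452). Cdkn2a, also given as deleted in both groups, was at 10.58 or more in PRC2 loss tumors 1 and 2, at 5.67 in PRC2 loss tumor 3 and between 7.43 and 8.17 in wildtype. Its log2 difference was 1.39 (limma adjusted p = 0.351), and 3.09 without PRC2 loss tumor 3 (limma adjusted p = 0.00104), so its level does not check the label. Xist was listed at 7.79 in PRC2 loss tumor 1 and at 6.45 in wildtype tumor 5 and at 15.16 or more in the other 6 tumors, and the Y-linked gene Ddx3y was high in those 2 only, at 12.09 and 12.11. Of 20807 genes tested with limma, 7424 (35.7%) passed an adjusted p of 0.05, with 3337 (16%) higher in PRC2 loss and 4087 (19.6%) lower there, and the median log2 difference of all genes was -0.124.

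Upstream sequence is shown for 3 genes with large rises, Prx, Ncmap and Gjb1, whose windows hold a motif of a factor family active in Schwann cells and overlap no annotated exon. Each line is the 250 bases before a RefSeq transcription start on mouse build GRCm38.p6 (mm10), written 5′ to 3′ on the strand of the gene, with motif matches in capitals. Prx is shown at chr7:27499074-27499323 on the plus strand, Gjb1 at chrX:101383482-101383731 on the plus strand, the most downstream of its 4 windows, and Ncmap at chr4:135385673-135385922 on the minus strand, the more downstream of its 2 windows.
Prx: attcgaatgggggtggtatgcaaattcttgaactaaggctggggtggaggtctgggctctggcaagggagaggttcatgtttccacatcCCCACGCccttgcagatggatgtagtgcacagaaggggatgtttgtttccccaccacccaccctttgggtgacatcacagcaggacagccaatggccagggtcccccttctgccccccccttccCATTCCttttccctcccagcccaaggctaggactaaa
Gjb1: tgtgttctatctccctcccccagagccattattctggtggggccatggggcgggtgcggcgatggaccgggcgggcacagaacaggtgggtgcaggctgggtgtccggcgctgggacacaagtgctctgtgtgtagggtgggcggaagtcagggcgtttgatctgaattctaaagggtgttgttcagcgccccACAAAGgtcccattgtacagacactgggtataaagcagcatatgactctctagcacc
Ncmap: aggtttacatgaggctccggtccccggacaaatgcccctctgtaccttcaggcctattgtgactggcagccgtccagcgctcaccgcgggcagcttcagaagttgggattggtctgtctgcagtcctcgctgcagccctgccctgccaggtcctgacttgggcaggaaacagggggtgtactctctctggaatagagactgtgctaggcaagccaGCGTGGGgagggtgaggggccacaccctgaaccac
The motifs searched on both strands were ACAAAG for the SOX family, to which Sox10 belongs, GCGTGGG for the EGR family, to which Egr2 belongs, and GGAATG for the TEAD family. In Prx the capitals are an EGR match on the minus strand that begins 161 bases before the start and a TEAD match, also on the minus strand, at 37 bases. In Gjb1 they are a SOX match at 57 bases, and in Ncmap an EGR match at 35 bases. RefSeq windows were at hand for 9 of the 10 genes, 17 windows in all, some of which overlap each other. No window of Cldn19, the gene with the largest rise of the 10, or of Nfasc, Gldn or Cadm4 held a match. The other Ncmap window held none either. A SOX match was present in 5 of the 17 (29.4%), of 3 genes, beside 16.5% of all 32851 windows of that length, 14% of the windows of tested genes and 13.3% of those of genes higher in PRC2 loss. Of these 5, the matches in a pair of overlapping Mag windows are the same site counted in each. An EGR match was present in 2 (11.8%), beside 4.3% of all windows, 6.15% for tested genes and 6.74% for higher genes. A TEAD match was present in 4 (23.5%), beside 12.6%, 11.6% and 13.1% of those 3 sets. No match of a motif overlapped a match of another motif, and a match is a description of letters, not of binding.

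Both outer membrane scaffold genes were far higher in PRC2 loss, 39.6-fold for Prx and 56.9-fold for Drp2, with no overlap between the groups. Prx (mm10 chromosome 7, 27499324 to 27520214, plus strand) encodes periaxin, the PDZ scaffold of the Schwann cell outer membrane. It stood at 14.22, 14.50 and 13.71 in PRC2 loss tumors 1 to 3 and at 9.08, 9.38, 8.75, 8.28 and 8.70 in wildtype tumors 1 to 5. Every PRC2 loss tumor was at least 4.33 above the highest wildtype tumor on the log2 scale. The log2 difference was 5.31 (SE 0.268), with limma adjusted p = 3.51e-05, which ranked 14 by p among all genes tested. Drp2 (chromosome X, 134404551 to 134456573, plus strand) encodes the dystrophin-related protein that binds periaxin and links it to dystroglycan. It stood at 14.09, 13.90 and 13.08 in PRC2 loss and at 7.35, 8.60, 7.96, 7.90 and 7.47 in wildtype. The PRC2 loss values again lay apart from all wildtype values, with a log2 difference of 5.83 (SE 0.328; limma adjusted p = 4.58e-05). Drp2 is X-linked, and the tumors with low Xist were the highest of the PRC2 loss group and the second lowest of the wildtype group.

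The genes of cytoplasmic channels and junctions within the sheath included the largest rises of the set. Ncmap (chromosome 4, 135369576 to 135398227, minus strand) encodes a membrane protein of non-compact peripheral myelin. Its values were 11.93, 12.04 and 11.73 in PRC2 loss and 4.30, 6.13, 3.78, 5.15 and 2.72 in wildtype. The PRC2 loss tumors lay close together, the wildtype tumors spread widely and the groups did not overlap. The log2 difference was 7.48 (SE 0.693), or 179-fold (limma adjusted p = 0.000284). Wildtype values were low, so this fold depends on the offset used before the log. With 16 added on the linear scale the log2 difference of Ncmap was 6.57. Gjb1 (chromosome X, 101376378 to 101385629, plus strand) encodes the connexin of the gap junctions that link layers of the sheath, and its loss causes X-linked Charcot-Marie-Tooth neuropathy in humans. It stood at 9.17, 9.40 and 8.63 in PRC2 loss and was listed at 0, 2.32, 1.95, 2.45 and 0 in wildtype tumors 1 to 5. All wildtype tumors were near the floor of the scale, so the log2 difference of 7.73 (SE 0.729; limma adjusted p = 0.000299) depends on the offset used before the log. With 16 added on the linear scale it was 4.85 and still past the threshold. Cldn19 (chromosome 4, 119255414 to 119262438, plus strand) encodes the claudin of tight junctions within peripheral myelin. Its values were 11.80, 12.01 and 11.55 in PRC2 loss and 3.44, 4.45, 2.80, 4.09 and 1.70 in wildtype, and the gap between the groups, 7.10, was the widest of the 10 genes. The log2 difference of 8.49 (SE 0.616; limma adjusted p = 0.000114) ranked 21 among the rises of all genes tested. It also depends on the offset, and with 16 added on the linear scale it was 7.03. Cnp (chromosome 11, 100574904 to 100591729, plus strand) encodes a cyclic nucleotide phosphodiesterase that keeps cytoplasmic channels open in myelin of the central nervous system. It stood at 12.82, 12.44 and 12.57 in PRC2 loss and at 11.63, 11.65, 10.45, 11.53 and 10.14 in wildtype. The groups did not overlap, but the gap was only 0.79, and the log2 difference was 1.53 (SE 0.380), or 2.88-fold (limma adjusted p = 0.0152). The Cnp call was lost without PRC2 loss tumor 1 (limma adjusted p = 0.0611) or tumor 3 (0.0504), and with tumors of 1 animal code averaged (0.0508).

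The genes of the axon-facing membrane and the node moved unevenly. Mag (chromosome 7, 30899176 to 30914873, minus strand) encodes the periaxonal adhesion molecule myelin-associated glycoprotein. It stood at 10.22, 10.28 and 9.89 in PRC2 loss and at 6.18, 7.21, 6.05, 6.39 and 5.98 in wildtype, with no overlap. The log2 difference was 3.77 (SE 0.318), or 13.6-fold (limma adjusted p = 0.00021). Nfasc (chromosome 1, 132564690 to 132741797, minus strand) encodes neurofascin, whose glial form seals the paranode and whose neuronal form sits on the axon at the node. It stood at 12.26, 12.40 and 12.11 in PRC2 loss and at 8.50, 9.39, 8.52, 7.30 and 6.93 in wildtype. The PRC2 loss values were again all above wildtype, with a log2 difference of 4.13 (SE 0.518), or 17.5-fold (limma adjusted p = 0.000907), and whole-gene values do not separate the glial from the neuronal form. Cadm4 (chromosome 7, 24482023 to 24504539, plus strand) encodes the Schwann cell adhesion molecule of the internode, which binds Cadm3 on the axon. Its values were 13.14, 13.29 and 11.89 in PRC2 loss and 12.58, 12.83, 8.67, 7.38 and 6.97 in wildtype. Both PNC8 wildtype tumors lay above PRC2 loss tumor 3, and the log2 difference of 3.09 (SE 1.45; limma adjusted p = 0.133) missed the threshold. Gldn (chromosome 9, 54286486 to 54341786, plus strand) encodes gliomedin, the microvillar ligand that gathers neurofascin and sodium channels at the node. Its values were 11.29, 11.68 and 11.05 in PRC2 loss and 9.38, 8.84, 10.85, 11.58 and 9.25 in wildtype. Wildtype tumor 4 lay within the PRC2 loss range, and the log2 difference of 1.36 (SE 0.609; limma adjusted p = 0.116) missed the threshold.

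**Figure D1:**
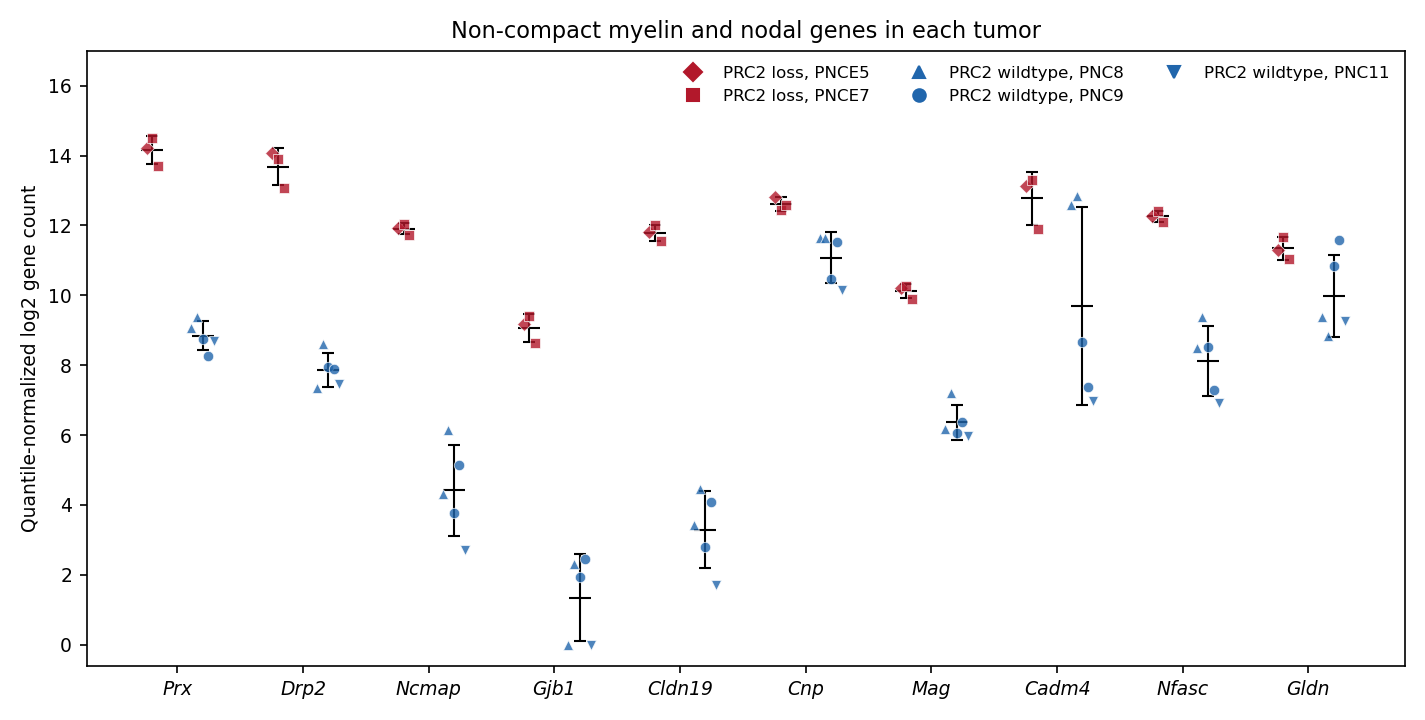
Quantile-normalized log2 gene count of the 10 genes in each tumor, with PRC2 loss (red, n = 3) left of PRC2 wildtype (blue, n = 5) for each gene. Marker shapes are animal codes, the black bars are the group mean ± SD, and the groups overlap for Cadm4 and Gldn only.

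Of the 10 genes, 8 rose in PRC2 loss and none fell at a limma adjusted p below 0.05, where 16% of all tested genes rose and 19.6% fell. In these 8 every PRC2 loss tumor was above every wildtype tumor, an arrangement seen for 16.9% of all tested genes, while 21.4% had the opposite one. The median log2 difference over the 10 was 4.72, beside -0.124 over all genes. The order, highest first, was Cldn19, Gjb1, Ncmap, Drp2, Prx, Nfasc, Mag, Cadm4, Cnp and Gldn, and differences between neighbours were not tested. The place of Gjb1 rests on wildtype values at the floor of the scale, and with 16 added on the linear scale its difference, 4.85, came after those of Cldn19, Ncmap, Drp2 and Prx. Centring each tumor on 15 housekeeping genes, 8 of which were lower in PRC2 loss, gave 7255 genes higher and 1800 lower over the whole table, moved the median of all genes to 0.401, and left 9 of the 10 higher, Gldn now among them (limma adjusted p = 0.0275). In bulk tumor RNA, fewer cells of a type and less RNA per cell cannot be told apart.

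The 10 genes were more even within PRC2 loss, with 3 tumors of 2 animal codes, than within wildtype, with 5 tumors of 3 codes. The SD over tumors ran from 0.149 for Nfasc to 0.768 for Cadm4 in PRC2 loss, and from 0.417 for Prx to 2.83 for Cadm4 in wildtype, and was larger in wildtype for 9 of 10 genes. Wildtype values of Gjb1, 0 to 2.45, lie near the floor of the scale. List means of compact myelin and Schwann lineage genes also had a larger SD in wildtype (0.867 and 1.87) than in PRC2 loss (0.396 and 0.322). The node, paranode and microvilli list had the opposite (0.129 and 0.201). These differences in spread were not tested. PRC2 loss tumor 3 was the lowest of its group for 9 of the 10 and tumor 2 the highest for 8. Between those sciatic tumors of 1 animal code, tumor 3 minus tumor 2 ran from -1.40 for Cadm4 to 0.13 for Cnp. The paraspinal tumor 1 lay close to tumor 2, with a difference of tumor 2 minus tumor 1 from -0.38 to 0.39. In wildtype, tumor 2 was the highest for 8 genes and tumor 5 the lowest for 7. PRC2 loss tumor 3 also had the highest mean of skeletal muscle markers in its group (9.04, beside 3.28 and 5.63 in PRC2 loss tumors 1 and 2) and of adipocyte markers (10.31, beside 4.83 and 7.23), and their part in its lower values was not tested.

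**Figure D2:**
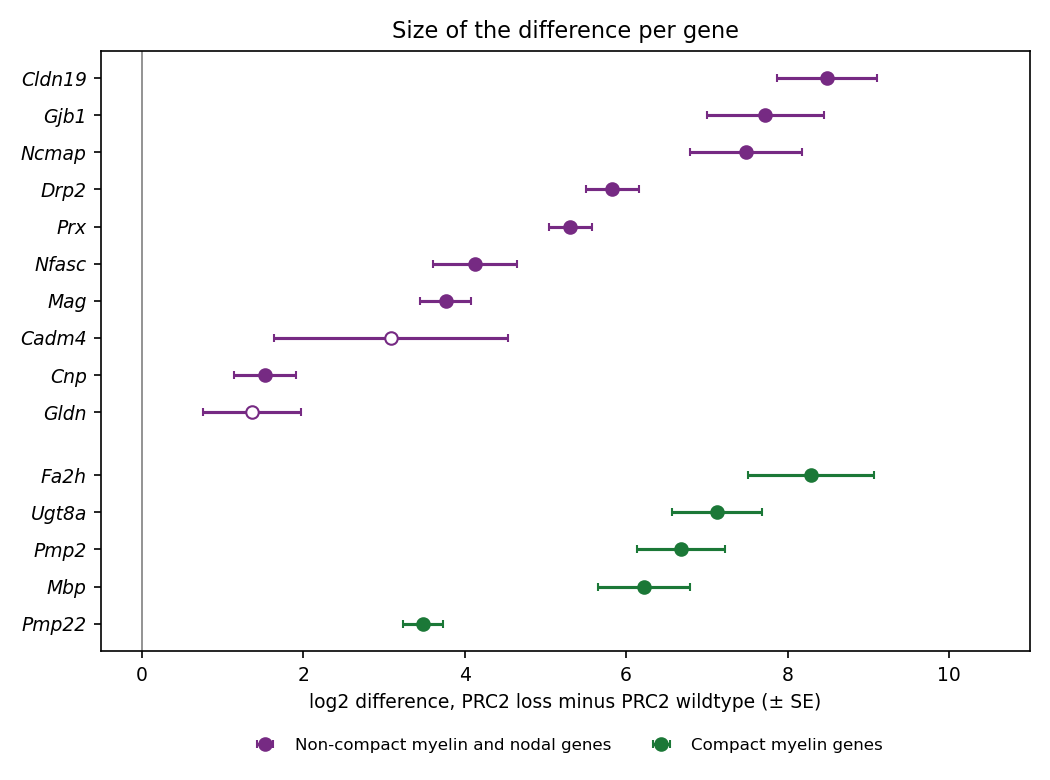
Log2 difference, PRC2 loss minus PRC2 wildtype, with its limma SE, for the 10 non-compact myelin and nodal genes (purple) and 5 of the 8 compact myelin genes (green). Filled points had a limma adjusted p below 0.05, and the open points are Cadm4 at 3.09 and Gldn at 1.36.

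In both genes that missed the threshold, the high wildtype tumors shared an animal code. Cadm4 was at 12.58 and 12.83 in the PNC8 tumors and between 6.97 and 8.67 in the other 3 wildtype tumors. Without the PNC8 tumors the log2 difference of Cadm4 was 5.10, which restates these values, since those tumors were left out for being high. The PNC8 tumors also stood above the other wildtype tumors for 7 of 8 Schwann lineage markers. The same arrangement was seen for 3 of the 10 genes and 4 of 8 compact myelin genes. It was also seen for 6 of 20 adhesion, junction and polarity genes and 9 of 9 skeletal muscle markers. The share of all tested genes with this arrangement was not counted. Sox10, the Schwann lineage transcription factor, was at 12.08, 12.57 and 12.11 in PRC2 loss, at 12.09 and 12.40 in the PNC8 tumors and between 7.07 and 8.37 in the other wildtype tumors. Gjc3, the connexin gene of the innermost myelin membrane, was also high in the PNC8 tumors, at 11.92, 11.90 and 11.50 in PRC2 loss, at 11.11 and 11.03 in the PNC8 tumors and 5.38 to 7.15 in the other wildtype tumors. Prx, Gjb1 and Cldn19 were far below PRC2 loss in the PNC8 tumors, at no more than 9.38 for Prx, 2.32 for Gjb1 and 4.45 for Cldn19. Skeletal muscle markers were high in the PNC8 tumors as well, with means of 12.30 and 11.49 against 3.69 to 5.77 in the other wildtype tumors, and their part in these values was not tested. Gldn was at 10.85 and 11.58 in the PNC9 tumors and between 8.84 and 9.38 in the other 3 wildtype tumors. Without the PNC9 tumors its log2 difference was 2.19, which likewise restates the values for which those tumors were left out. Sox10 and Gjc3 were named after their values were seen.

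**Figure D3:**
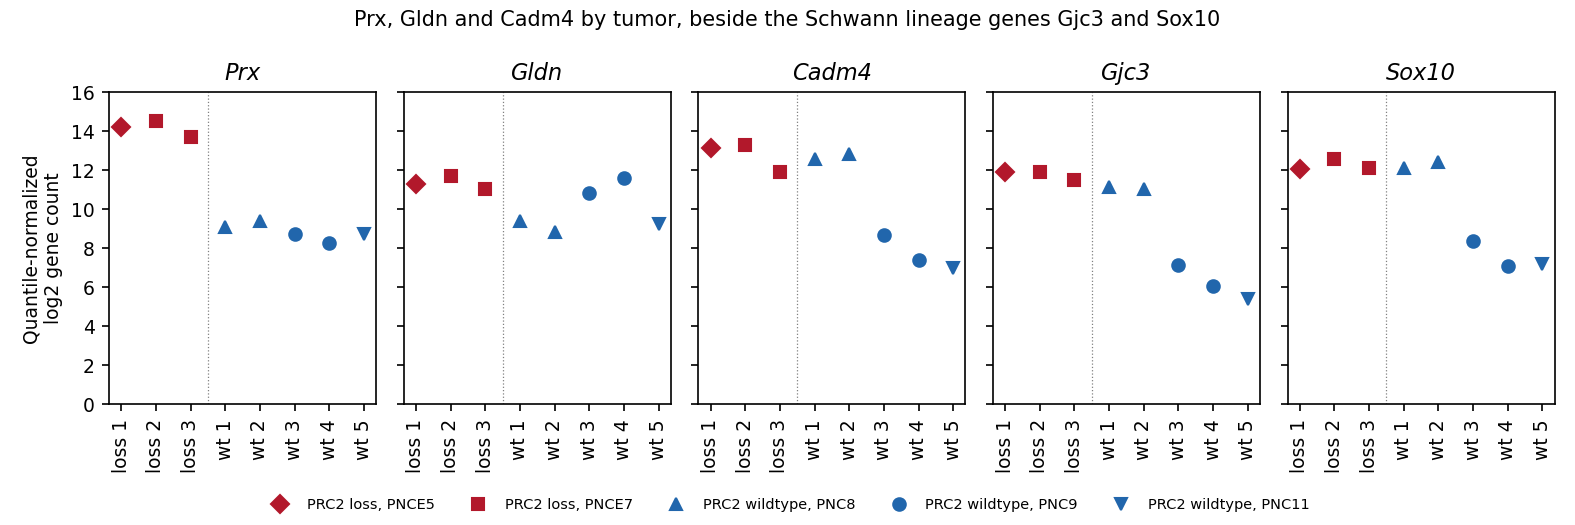
Quantile-normalized log2 gene count of Prx, Gldn, Cadm4, Gjc3 and Sox10 in PRC2 loss tumors 1 to 3 (red) and wildtype tumors 1 to 5 (blue, wt), with marker shapes for animal codes. Cadm4, Gjc3 and Sox10 were high in the PNC8 wildtype tumors, Gldn was high in the PNC9 wildtype tumors and Prx was low in all wildtype tumors.

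Partner genes of the same structures had smaller median differences. Of 16 genes of the dystroglycan complex and its relatives, 7 rose and none fell, beside 16% of all tested genes higher and 19.6% lower, with a median log2 difference of 0.43. The sarcoglycan gene Sgcd was 3.26-fold higher at 12.46 ± 0.30 in PRC2 loss (SD, n = 3) and 10.76 ± 0.19 in wildtype (SD, n = 5). Dmd, whose short form lies in Schwann cells, was 4.18-fold, utrophin (Utrn) 2.65-fold, sarcospan (Sspn) 1.99-fold and dystroglycan itself (Dag1) 1.93-fold higher. The limma adjusted p of these 5 ran from 0.000339 for Sgcd to 0.0171 for Dag1, and the Dag1 call was lost without PRC2 loss tumor 1 (0.0664), without PRC2 loss tumor 2 (0.0711) and without the PNC9 wildtype tumors (0.0537). The periaxin partner Drp2 had a log2 difference of 5.83, while the receptor it binds to had 0.95; the difference between them was not tested.

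Of 17 genes of the node, paranode and microvilli, 6 rose and 3 fell, with a median log2 difference of 0.69. Among all tested genes 16% were higher and 19.6% lower, so the share that fell was near that of all genes. Ank2, an ankyrin, was 3.03-fold, Sptbn1, a spectrin, 2.73-fold, and Cntnap1, the axonal paranodal receptor gene, 2.66-fold higher (limma adjusted p = 0.00457, 0.00159 and 0.00255). The 3 that fell were Epb41l3, a membrane skeleton gene, 3.21-fold lower, Vcan, a matrix proteoglycan, 7.59-fold lower, and Msn, a microvillar linker, 1.88-fold lower (limma adjusted p = 0.000836, 0.00888 and 0.0072). Msn no longer passed after housekeeping centring (limma adjusted p = 0.138) or with tumors of 1 animal code averaged (0.0517). Nrcam, the partner of gliomedin and neurofascin at the node, was at 8.62 ± 0.84 in PRC2 loss (SD, n = 3) and 7.44 ± 1.12 in wildtype (SD, n = 5), which missed the threshold (limma adjusted p = 0.202); it was named after its values were seen.

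Of 20 adhesion, junction and polarity genes, 10 rose and 1 fell, with a median log2 difference of 0.76. Over all tested genes, 16% were higher and 19.6% lower. Cadm3, the axonal ligand of Cadm4, stood at 12.36, 12.33 and 12.25 in PRC2 loss and at 9.13, 7.66, 8.74, 8.92 and 7.05 in wildtype. The groups were far apart, with a log2 difference of 4.01 (SE 0.464; limma adjusted p = 0.000674). Cadm1 and Cadm2, named after their values were seen, were 3.40-fold and 4.21-fold higher (limma adjusted p = 0.0384 and 0.0219), so 3 of the 4 genes of the family passed and Cadm4 did not. Among tight junction genes, Cldn1, a perineurial claudin, was 17.4-fold, Jam3, a junctional adhesion gene of Schwann cells, 4.79-fold, Cldn5, an endothelial claudin, 4.74-fold, and Tjp1, the junction scaffold, 2.82-fold higher. Their limma adjusted p ran from 0.00119 for Tjp1 to 0.0144 for Cldn5, which no longer passed without the PNC9 wildtype tumors (0.0639) or with tumors of 1 animal code averaged (0.0914). Gja1, a connexin of many non-myelinating cells, was 3.58-fold lower in PRC2 loss (limma adjusted p = 0.0102), opposite to Gjb1. Centring on housekeeping genes gave 18 of the 20 higher in place of 10, averaging tumors of 1 animal code gave 6, and leaving out PRC2 loss tumor 1 or tumor 2 gave 5 or 6.

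**Figure D4:**
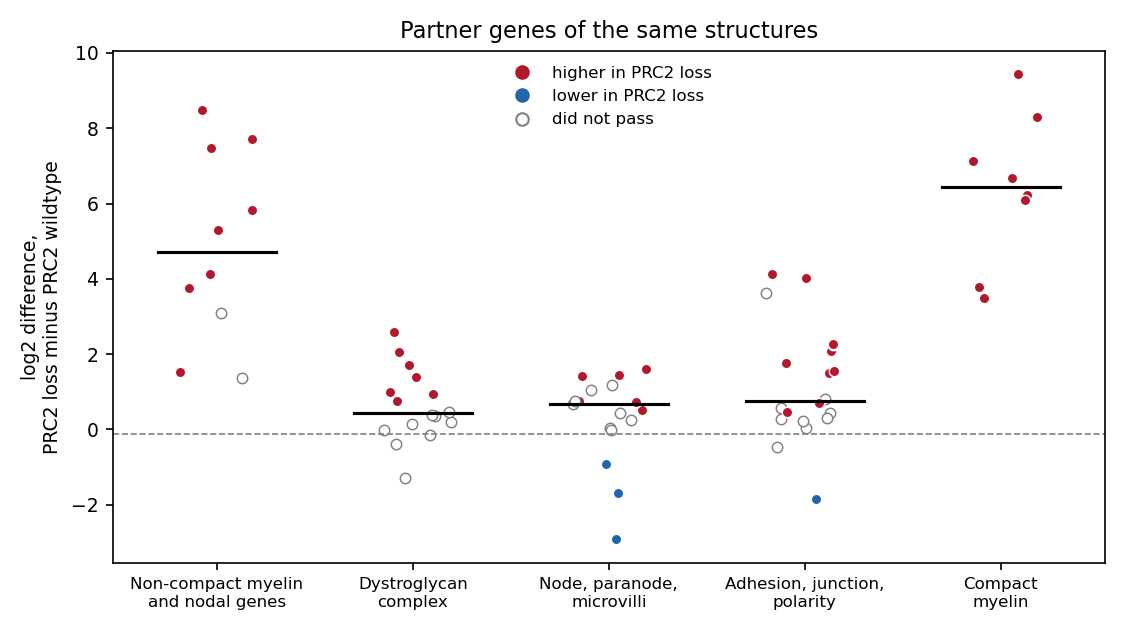
Log2 difference, PRC2 loss minus PRC2 wildtype, of each gene in 5 lists, with a black bar at the list median and a dashed line at the median of all genes, -0.124. Red genes were higher and blue genes lower in PRC2 loss at a limma adjusted p below 0.05, and open circles did not pass; medians were 4.72 for the non-compact myelin and nodal genes and 6.45 for compact myelin.

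Compact myelin genes, which make the bulk of the sheath, rose together with the non-compact set. All 8 of this list were higher, beside 16% of all tested genes, with a median log2 difference of 6.45. Fa2h and Ugt8a, enzymes of the galactolipids of myelin, were 313-fold and 140-fold higher, Pmp2, a fatty acid binding protein, 102-fold, Mbp, the basic protein of the membrane interface, 74.4-fold, and Pmp22, a membrane protein of compact peripheral myelin, 11.2-fold (limma adjusted p at most 0.000293 for these 5). Wildtype values were low for Fa2h (0 to 3.46), Ugt8a (2.85 to 5.04) and Pmp2 (2.80 to 5.06). The folds of these genes therefore depend on the offset used before the log. Their log2 differences were 8.29, 7.13 and 6.68, and as low as 5.97, 5.88 and 5.83 across alternatives. The difference between the medians of the 2 lists was not tested.

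The 5 other genes whose profile over the 8 tumors was nearest to the median profile of the 10 were Kif19a, Zfp612, Susd2, Sema5b and Egfl8. Likeness was the root mean square distance between mean-centred log2 profiles, and it ran from 0.313 for Kif19a to 0.419 for Egfl8 among 11481 candidate genes. Prx was at 0.347 from the same profile, while Cldn19, Cadm4 and Gldn were at 1.81, 1.91 and 2.00. Kif19a, a kinesin gene, was 24.3-fold higher, at 10.56, 10.54 and 9.86 in PRC2 loss and 5.74, 6.41, 5.48, 5.37 and 5.57 in wildtype. Sema5b, a semaphorin gene, was 30.6-fold higher. These genes were picked for likeness to a profile that is higher in PRC2 loss, so their rises follow from the choice.

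Markers of other cells that can hold these transcripts or accompany nerve were read beside these results. Their counts stand beside 16% of all tested genes higher in PRC2 loss and 19.6% lower there. Mag, Cnp and Nfasc are also used by oligodendrocytes, and 4 of 7 measured oligodendrocyte markers rose, with list means of 3.07 to 3.55 in PRC2 loss and 0.83 to 1.80 in wildtype. Cldn11, a tight junction gene of oligodendrocyte myelin, was at 8.12, 10.88 and 8.45 in PRC2 loss and at 4.96, 6.12, 3.62, 4.09 and 1.70 in wildtype, 33.2-fold higher (limma adjusted p = 0.0067). Mobp, Olig1 and Hapln2 were 6.57-fold, 5.55-fold and 4.50-fold higher, all with values of 5.12 or less in every tumor. The myelin gene Mog of that cell type was at 3.59, 2.54 and 0.33 in PRC2 loss and between 0 and 3.04 in wildtype and missed the threshold, as did Ermn and Olig2, at 1.23 or less in every tumor. The part of oligodendrocyte transcripts in the Mag, Cnp and Nfasc values was not tested. Of 8 axon and neuron markers none rose and 3 fell, Nefl, Nefm and Stmn2, with list means of 5.13 to 6.27 in PRC2 loss and 6.69 to 8.40 in wildtype. Perineurial markers rose in 4 of 5, with list means of 10.08 to 10.52 in PRC2 loss and 6.48 to 7.94 in wildtype, and endothelial markers in 5 of 6, with 12.10 to 12.89 in PRC2 loss and 9.98 to 10.86 in wildtype. Schwann lineage markers rose in 4 of 8, with 11.49 to 12.12 in PRC2 loss and 6.51 to 10.56 in wildtype. Macrophage markers fell in 4 of 6, with 11.73 to 12.17 in PRC2 loss and 12.64 to 13.64 in wildtype. No skeletal muscle or adipocyte marker passed the test, with muscle list means of 3.28 to 9.04 in PRC2 loss and 3.69 to 12.30 in wildtype, and adipocyte list means of 4.83 to 10.31 in PRC2 loss and 5.16 to 11.49 in wildtype. No marker of these lists was at 0 in every tumor of a group. The descriptions name a nerve for each PRC2 loss tumor and no nerve for wildtype tumors, and the part of normal nerve, perineurium or vessels in the rises above was not tested.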

How the data were processed

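RNA was extracted from 8 tumors with Trizol and made into TruSeq poly-A libraries, per the labels' protocols. The values deposited by the authors are log2 gene counts after quantile normalization; the submitters' processing notes name Trim Galore, STAR 2.6, Partek 7.0 and mm10, and annotation, counting, strand use and the offset before the log are named in none of the sources used here. Quantile normalization gives each tumor nearly the same distribution, so the deposited log2 values hold no depth, and no counting interval is given.

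Groups came from the titles, and columns were matched by description. Of 20943 genes, 136 were constant and 20807 were tested with limma 3.58.1 (R 4.3.3), with a trended variance prior and two-sided p-values adjusted over all genes by the Benjamini-Hochberg method, and 0.05 was the threshold. Values were used without a pseudocount, and a fold is 2 raised to a log2 difference. For low genes the size of a fold depends on the unnamed offset before the log. All 10 genes passed every filter of that fit. P-values measure the spread between these tumors, which may be technical in part.

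The 10 genes and the lists were chosen with earlier results of these data known. Genes named are the 10, Eed, Nf1 and Cdkn2a as a label check, up to 6 per partner or compact myelin list (called genes in order of p, then the others in order of mean level), and the 5 nearest profiles; a few genes that this rule names are not reported here. Genes outside this rule, markers included, were named after their values were seen. Positions are from GENCODE M21 (mm10) and upstream sequences from RefSeq (GRCm38.p6). When this comparison was tested on simulated data of 20807 genes, 28 of 50 shifted by 1 and 49 of 50 shifted by 4 on the log2 scale were recovered, with 10 calls among unchanged genes. Alternatives covered low-value filters, pseudocounts, variance priors, array weights, centring, animal code, the replicate number as a block and leaving out each tumor.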

Additional observations from a re-analysis of the deposited data

Results flagged for a closer look

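Of 42 named genes screened in the 5 wildtype tumors, 3 had a tumor far from the other 4, where chance gives about 5% of such groups. Msn was highest in wildtype tumor 5 at 15.34, with the next tumor at 14.85. Cldn5 was lowest in wildtype tumor 3 at 8.13, with the next at 8.53. Pmp2 was lowest in wildtype tumor 3 at 2.80, with the next at 4.64. None of the 10 non-compact myelin and nodal genes was among them, and no PRC2 loss group of 3 tumors was screened.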

How the results depend on the processing

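Prx, Drp2, Mag, Gjb1, Cldn19 and Ncmap kept direction and call under every alternative in which they were tested, and none of the 10 genes was called lower under any. Across alternatives 4 to 9 of the 10 were called higher; 4 came from leaving out genes with a mean below the median of gene means, where 6 of the 10 remained, the median difference of those was 3.61, 5 compact myelin genes were called, and 4248 genes in all were called (1715 higher, 2533 lower). The Nfasc call was at the threshold with PRC2 loss tumor 1 as the only tumor of its group (limma adjusted p = 0.05). Cnp lost its call there too (0.163). Cadm4 passed with array weights (0.045) and without wildtype tumor 2 (0.0479), and Gldn without wildtype tumor 4 (0.0248).

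Leaving out each tumor in turn gave 5528 to 7697 calls over all genes and 7 to 9 of the 10. The adhesion, junction and polarity list then had 5 to 10 higher, the lowest without PRC2 loss tumor 1 (5) and tumor 2 (6), and 1 to 2 lower, with 2 without PRC2 loss tumor 3. Array weights also gave 2 lower in that list. Centring on housekeeping genes gave 7255 higher and 1800 lower genes, and 10 higher in the node list and 18 in the adhesion list. Averaging tumors of 1 animal code gave 4226 calls (2113 in each direction) and 6 higher in the adhesion list. Leaving out the PNC8 tumors gave 2 lower dystroglycan complex genes. With PRC2 loss tumor 1 alone, whose spread is assumed to be that of wildtype, 3454 genes were called (1839 higher, 1615 lower), with 4 higher and 1 lower in the dystroglycan list, 2 higher and 1 lower in the node list and 3 higher in the adhesion list. Leaving out the PNC8 or PNC9 tumors and keeping PRC2 loss tumor 1 alone were chosen after seeing the data.

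Replicate numbers are shared by the groups but did not pair the tumors: deviations of same-numbered tumors correlated at -0.208, 0.146 and -0.095. With the replicate block, 1903 genes were called (1129 higher, 774 lower), with 7 of the 10, 3 higher and 0 lower in the node list, and 4 higher and 0 lower in the adhesion list. Depth is unknown, so values near 0, such as Gjb1 in wildtype, are floors of the scale and not measured absences.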
